A study of Mus musculus with 27 samples.

Results

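The apical membrane of an epithelial cell faces a lumen, and its making depends on a small set of genes. 10 of them are described here, from 23604 genes in a table of RNA levels: Podxl, Ezr, Slc9a3r1, Pard3, Pard6b, Prkci, Prkcz, Crb3, Mpp5 and Rab11a. They were chosen by name, and all 10 are in the table. The study grew mouse pluripotent stem cells flat or embedded in gel, and the question here is how the flat cells differ in these genes from cells grown in gel, which form spheroids around a lumen, and from other pluripotent states.

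RNA was sequenced in 19 libraries, all labelled wild type. The 46C, BVSC and ROSAmTmG cells carry reporters (Sox1-GFP, Blimp1 and Stella, and a membrane reporter at ROSA). Naive mESCs (2 libraries) were grown without feeders on gelatin, in N2B27 with PD0325901, Chir99021 and LIF. EpiLCs (2 libraries) were the flat cells made from mESCs in 48 h, in N2B27 with KSR, Activin A and bFgf2. Epiblastoids (1 library each on days 2, 3 and 4) were kept in the same medium but embedded in Matrigel. The study describes those of day 4 as irregular colonies whose polarity had broken down, so the lumen-bearing form is that of days 2 and 3. Formative stem cells, fPSCs, were kept in Matrigel with Activin A, bFgf2 and XAV939, an inhibitor of Wnt signalling, and without KSR. They gave 1 library at passage 1 (P1) and 7 after long-term culture, and epiblasts of E5.5 and E6.5 gave fPSCs for 1 library each. EpiSCs (2 libraries), the primed state, were grown with KSR, Activin A, bFGF2 and XAV939 on feeders made of inactivated mouse fibroblasts. The long-term fPSCs came from 2 deposits. P10, P20 and P30 are in the first, and 46C P24, ROSAmTmG P12, CMT P11 and BVSC P14 in the second. By the study's description P1, P10, P20 and P30 are also of CMT, so 4 of the 7 long-term libraries come from 1 line and are not independent lines, and CMT P11 had been cryopreserved. All other libraries are from the first deposit, whose labels name a total RNA protocol where those of the second name a NEBNext Ultra kit, so for 46C, BVSC and ROSAmTmG the line and the deposit cannot be told apart. No label says whether libraries of a group came from separate cultures. The 2 libraries of mESCs, of EpiLCs and of EpiSCs may thus differ by technical spread only. The p-values rest on a single spread pooled over the groups. It also holds differences between fPSC lines, passages and deposits and between Epiblastoid days, so it is not the spread between cultures of a single state.

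Levels are FPKM, fragments scaled to transcript length and library size, which can be compared between genes. Without counts in the table, depth is unknown. Summed FPKM ran from 307394 to 414727 per library and 10034 to 10933 genes reached 1 FPKM. Groups were compared on log2(FPKM + 1) with limma over 16 libraries (all but P1 and the epiblast-derived fPSCs), and the threshold for a call was an adjusted p (Benjamini-Hochberg over 12629 genes) below 0.05 together with a fold of 1.5 or more. The labelled states carried their markers. The sum of 5 naive markers (Zfp42, Esrrb, Klf4, Tbx3, Nanog) was 955 and 1026 FPKM in mESCs and at most 92.2 FPKM in any other library, and that of 4 formative markers (Fgf5, Pou3f1, Otx2, Dnmt3b) was 835 and 894 FPKM in EpiLCs against 26.8 and 31.1 FPKM in mESCs. In EpiSCs the sum of 10 fibroblast markers was 642 and 757 FPKM, against at most 17.9 FPKM elsewhere. In these bulk libraries, fewer cells of a type and less RNA per cell cannot be told apart.

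Apical polarity is set by complexes that assemble at the free surface of the cell. The Par complex joins the scaffold Pard3 and the adaptor Pard6b to an atypical protein kinase C, encoded by Prkci or Prkcz, and the Crumbs complex joins the membrane protein Crb3 to the scaffold Mpp5, also called Pals1. Podxl encodes podocalyxin, a heavily charged sialomucin that lines the early lumen, and Slc9a3r1 (also NHERF1) encodes the adaptor that ties it to ezrin, the product of Ezr, which links the membrane to actin. Rab11a carries apical cargo on recycling vesicles to the place where a lumen opens. In the embryo, epiblast cells acquire this polarity at implantation, form a rosette and then open the proamniotic cavity.

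Against flat EpiLCs, no member was past the threshold in Epiblastoids (0 of 10) or in fPSCs (0 of 10), 4 of 10 were in mESCs and 2 of 10 in EpiSCs. The share of all genes called was 1.92% for Epiblastoids, 11.7% for fPSCs, 27.4% for mESCs and 33.5% for EpiSCs. By direction, 0.626% of genes were higher and 1.29% lower in Epiblastoids, 4.40% and 7.28% in fPSCs, 16.3% and 11.1% in mESCs, and 19.3% and 14.2% in EpiSCs. Of the members, 1 was higher and 3 were lower in mESCs, and 1 was higher and 1 lower in EpiSCs. These comparisons share the EpiLC libraries and are not independent of each other. In fPSCs against mESCs, which does not use EpiLCs, 6 of 10 members were past the threshold (4 higher, 2 lower) beside 39.1% of all genes (16.5% higher, 22.6% lower). The median log2 fold change of the 10 members was 0.02 in Epiblastoids, 0.04 in fPSCs, -0.14 in mESCs and -0.13 in EpiSCs against EpiLCs, beside medians over all genes tested of 0.04, 0.01, 0.05 and -0.04. Podxl, Crb3, Pard6b, Prkcz, Slc9a3r1 and Prkci each passed in at least 1 of the 5 comparisons, while Ezr, Rab11a, Pard3 and Mpp5 passed in none. With 0 members called in Epiblastoids, 3 had an unadjusted limma p under 0.05 (Podxl, Slc9a3r1 and Prkci), and the same 3 did in fPSCs, beside 15.7% and 25.3% of all genes.

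**Figure D1:**
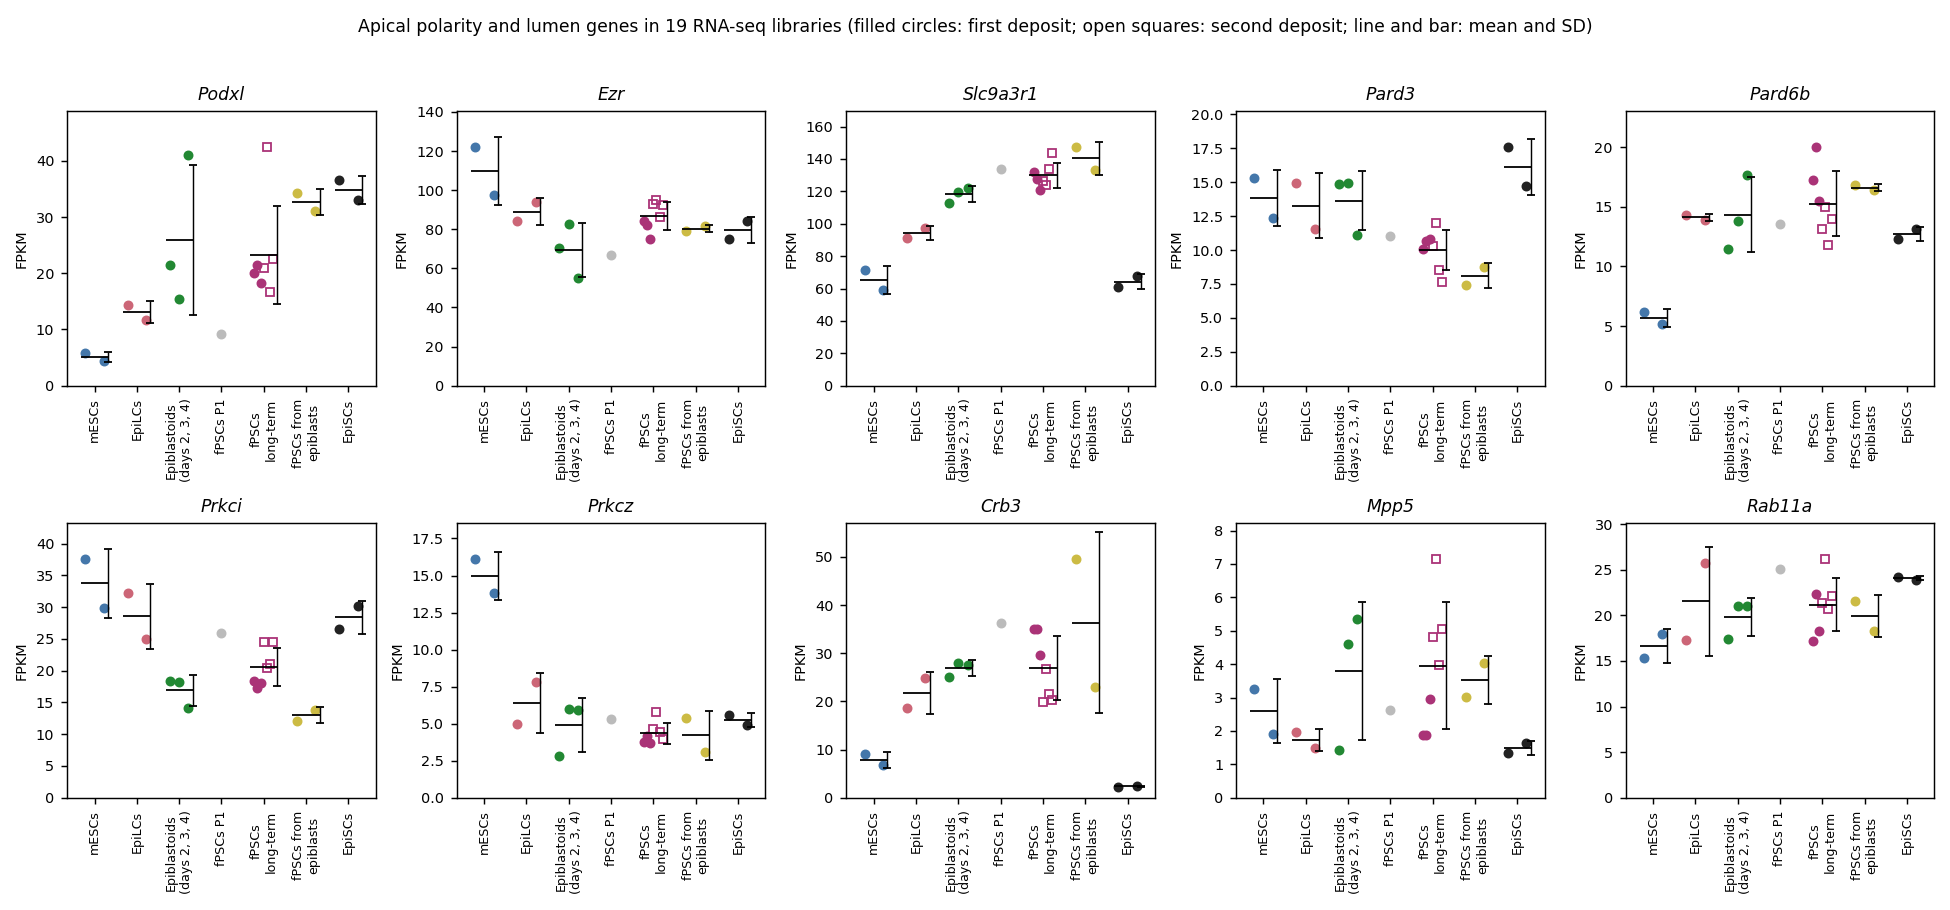
FPKM (y axis, from 0, with its own scale in each panel) of the 10 genes in 19 libraries by group (x axis). Points are libraries, the line is the group mean and the bar its SD; Podxl is lowest in mESCs, at 5.78 and 4.46 FPKM, and Crb3 is lowest in EpiSCs, at 2.31 and 2.40 FPKM.

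Podxl, the lumen sialomucin, covered a 9.53-fold range over the 19 libraries. It was at 5.78 and 4.46 FPKM in mESCs, and at 14.4 and 11.7 FPKM in EpiLCs. The Epiblastoids had 21.6, 15.5 and 41.0 FPKM on days 2, 3 and 4. The 7 long-term fPSC libraries ran from 16.7 FPKM in BVSC P14 over a median of 21.0 FPKM to 42.5 FPKM in 46C P24, and EpiSCs had 36.5 and 33.1 FPKM. All libraries of Epiblastoids, long-term fPSCs and EpiSCs were above both EpiLC libraries, while mESCs were below both and fPSCs at P1, at 9.16 FPKM, lay between mESCs and EpiLCs. The epiblast-derived fPSCs were at 34.4 and 31.1 FPKM.

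Podxl fell in mESCs against EpiLCs by 1.20 on the log2 scale (SE 0.41, limma adjusted p = 0.0385) and rose in EpiSCs by 1.36 (SE 0.41, adjusted p = 0.0187). It was 1.93 higher in fPSCs than in mESCs (SE 0.32, adjusted p = 0.000212). The difference between Epiblastoids and EpiLCs was 0.84 (SE 0.37, 95% interval 0.05 to 1.63, adjusted p = 0.290), and between fPSCs and EpiLCs it was 0.73 (SE 0.32, 0.04 to 1.43, adjusted p = 0.171). Neither passed the test, and neither interval excludes a change above the fold of 1.5. The call in mESCs was lost when any 1 of the 4 mESC and EpiLC libraries was left out, with an adjusted p of 0.0859 and 0.194 without mESCs 1 and 2 and of 0.186 and 0.0794 without EpiLCs 1 and 2. The call in EpiSCs was lost without EpiSCs 1 (adjusted p = 0.0891), EpiSCs 2 (0.0755) or EpiLCs 2 (0.114).

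The 2 libraries highest in Podxl were also high in markers of other cell types. The sum of 9 endoderm markers was 172 FPKM on day 4 of the Epiblastoids, where Podxl was at 41.0 FPKM, and 168 FPKM in 46C P24, where Podxl was at 42.5 FPKM. It was 2.15 to 3.09 FPKM on days 2 and 3, 8.14 to 52.9 FPKM in the other 6 long-term fPSC libraries, 84.2 and 93.2 FPKM in epiblast-derived fPSCs, 18.1 and 20.2 FPKM in EpiSCs and at most 2.75 FPKM in EpiLCs and mESCs. Among those other 6, ROSAmTmG P12 was highest in Podxl, at 22.5 FPKM, with an endoderm sum of 12.0 FPKM. BVSC P14 was lowest, at 16.7 FPKM, with a sum of 38.9 FPKM. On day 4, 4 of the 9 markers were at 1 FPKM or more (Sox17 at 68.7, Foxa2 at 52.8, Gata6 at 38.4 FPKM, and Gata4), and Afp and Ttr were at 0. In 46C P24, 5 of 9 were, led by Foxa2 at 81.9 and Sox17 at 50.6 FPKM. The sum of 4 primitive streak markers (T, Eomes, Mixl1, Gsc) was 533 FPKM on day 4 and 165 FPKM in 46C P24, against 7.84 and 51.8 FPKM on days 2 and 3, 27.9 to 68.7 FPKM in the other long-term fPSCs and 142 and 121 FPKM in epiblast-derived fPSCs. That of the 4 mesenchymal markers Cdh2, Snai1, Vim and Zeb2 was 154 FPKM on day 4 and 102 FPKM in 46C P24, against 26.9 FPKM on day 3 and at most 73.3 FPKM in the other long-term fPSCs. In mESCs, the lowest in Podxl, the mesenchymal sum was 98.0 and 80.6 FPKM. It was 38.0 and 82.1 FPKM in the fPSCs from E5.5 and E6.5 epiblasts, and 1151 and 1284 FPKM in EpiSCs. Without day 4, the difference of Podxl between Epiblastoids and EpiLCs was 0.46, and without 46C P24 that between fPSCs and EpiLCs was 0.58. In EpiSCs, 8 of 10 fibroblast markers were at 1 FPKM or more, with Tagln at 276 and 322 FPKM and Col1a1 at 111 and 153 FPKM, while Lum and Postn stayed under 1 FPKM. Of the 8 tested against EpiLCs, 6 were past the threshold higher and 1 lower. The lower one was Dcn (-0.91, limma adjusted p = 0.00391), and Thy1 differed by only 0.01. The part of these cell types or of feeder RNA in the level of Podxl was not tested.

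**Figure D2:**
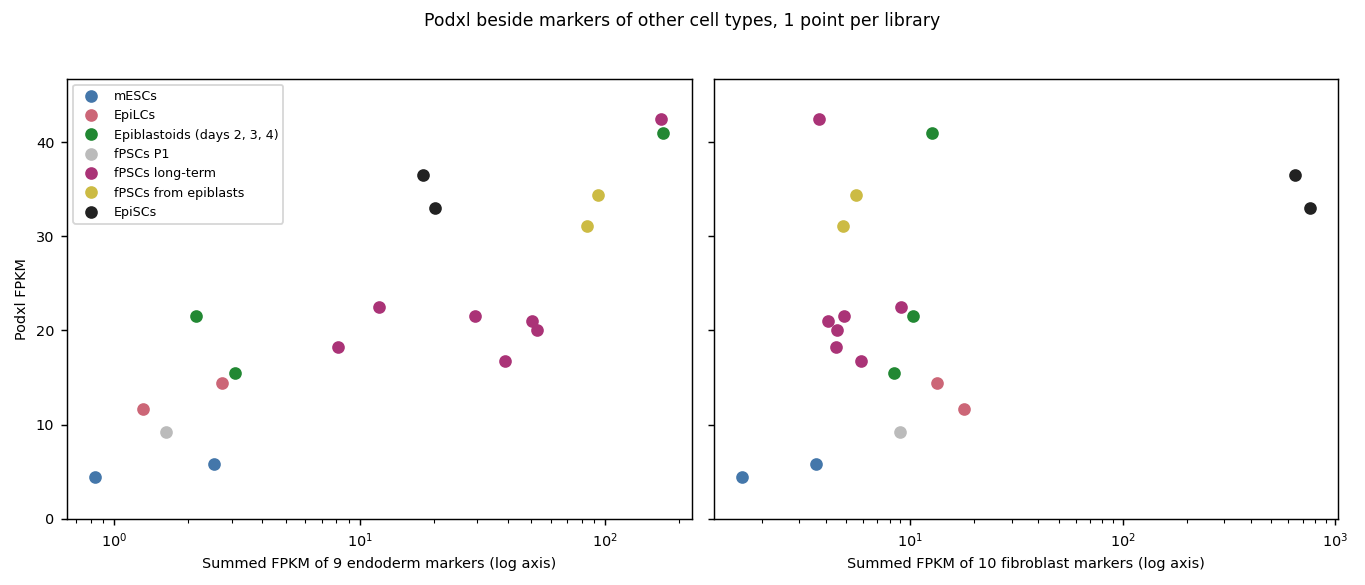
Podxl FPKM (y axis) against the summed FPKM of 9 endoderm markers (left, log axis) and of 10 fibroblast markers (right, log axis), 1 point per library. Day 4 Epiblastoids and 46C P24 fPSCs lie at the upper right of the left panel, with endoderm sums of 172 and 168 FPKM, and both EpiSC libraries stand apart in the right panel, at 642 and 757 FPKM.

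The 250 bases before the start of Podxl are shown for the CpG sites whose methylation was measured. Podxl lies on the minus strand of chromosome 6 (chr6:31469488-31513981, NCBIM37, the assembly called mm9), and the window is chr6:31513982-31514231. It holds 19 CpG, printed in capitals, more than 76.9% of 22102 promoters, and a stretch of CA repeats. The sequence runs 5′ to 3′ in the direction of the gene.
Podxl, 5′ end of the gene: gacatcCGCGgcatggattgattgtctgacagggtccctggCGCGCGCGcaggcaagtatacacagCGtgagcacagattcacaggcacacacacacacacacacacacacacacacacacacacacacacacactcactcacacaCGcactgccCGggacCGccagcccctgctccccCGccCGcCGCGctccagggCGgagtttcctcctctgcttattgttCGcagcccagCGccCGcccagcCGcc
Within 1000 bp of this start, methylation in fPSCs averaged 0.688% over 16 windows of 100 bp, against a median of 37.4% over all promoters.

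Ezr was 1 of the 2 most highly expressed of the 10 genes and varied 2.22-fold over the 19 libraries. It was at 122 and 97.4 FPKM in mESCs, 84.0 and 93.9 FPKM in EpiLCs, and 74.9 and 84.4 FPKM in EpiSCs. Epiblastoids had 70.5, 82.5 and 55.0 FPKM on days 2 to 4, and long-term fPSCs ran from 75.1 over a median of 86.2 to 95.2 FPKM. The 3 Epiblastoid libraries were below both EpiLC libraries, and the fPSCs overlapped them. The largest difference from EpiLCs was -0.37 in Epiblastoids (SE 0.18, 95% interval -0.76 to 0.02, adjusted p = 0.342). Without day 4, the lowest of the 3 libraries, it was -0.22 (adjusted p = 0.753). For fPSCs the difference from EpiLCs was -0.04 with an interval of -0.38 to 0.31. Under the pooled spread, a fold of 1.5 in either direction lies outside this interval.

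Of its relatives radixin (Rdx) and moesin (Msn), which make up the ERM family with ezrin, only moesin set EpiSCs apart. Rdx was at 43.6 and 34.9 FPKM in EpiSCs, inside the range of the other libraries (28.5 to 67.7 FPKM). Msn was at 218 and 236 FPKM in EpiSCs and at 43.3 to 84.3 FPKM in every other library, and it rose in EpiSCs against EpiLCs by 1.99 (SE 0.26, adjusted p = 5.51e-05). Ezr therefore made up 22.3% and 23.7% of the summed ERM level in EpiSCs, 54.1% and 53.8% in mESCs, 43.2% and 45.0% in EpiLCs, and 34.7% to 47.0% in all other libraries. The fibroblast marker sums of EpiSCs given above stand beside this value too, and their part was not tested.

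Slc9a3r1, the adaptor between podocalyxin and ezrin, was ordered by state with little spread. It was at 71.2 and 59.0 FPKM in mESCs, 61.2 and 67.4 FPKM in EpiSCs and 91.1 and 97.5 FPKM in EpiLCs. In Epiblastoids it was at 113, 120 and 122 FPKM on days 2 to 4, in fPSCs at P1 at 134 FPKM, in long-term fPSCs at 121 to 144 FPKM with a median of 128 FPKM, and in epiblast-derived fPSCs at 148 and 133 FPKM. Every library grown in Matrigel was above every flat or domed culture, while mESCs and EpiSCs overlapped. The share of all genes that separate in this way was not computed. The fPSCs also differ from EpiLCs in medium and passage, which cannot be told apart from the gel. Slc9a3r1 was higher in fPSCs than in mESCs by 0.99 (SE 0.12, adjusted p = 1.22e-05). Against EpiLCs, fPSCs were 0.46 higher (SE 0.12, 95% interval 0.19 to 0.72, adjusted p = 0.0240), which passed the p but not the fold of 1.5, and Epiblastoids were 0.32 higher (SE 0.14, 0.02 to 0.62, adjusted p = 0.281). mESCs and EpiSCs were 0.53 and 0.55 below EpiLCs on the log2 scale (-0.53 and -0.55, adjusted p = 0.0175 and 0.0138), again below the fold. With upper-quartile scaling of the libraries both passed, at -0.67 and -0.64 (adjusted p = 0.00459 and 0.00533).

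Ratios between the RNA levels of the genes of the podocalyxin linkage were computed within each library. There were 0.583 and 0.605 FPKM of Slc9a3r1 per FPKM of Ezr in mESCs, 0.816 and 0.799 in EpiSCs, 1.04 and 1.09 in EpiLCs, 1.45 to 2.22 in Epiblastoids, 2.01 in fPSCs at P1, 1.30 to 1.61 in long-term fPSCs and 1.87 and 1.63 in epiblast-derived fPSCs. All libraries from Matrigel were above all others in this ratio, and the share of gene pairs that separate as well was not computed. Per FPKM of Podxl, there were 21.1 and 21.8 FPKM of Ezr in mESCs, 5.83 and 8.05 in EpiLCs, 7.30 in fPSCs at P1, 1.34 to 5.34 in Epiblastoids, 2.24 to 5.16 in long-term fPSCs, 2.30 and 2.62 in epiblast-derived fPSCs and 2.05 and 2.55 in EpiSCs. Here P1 lay within the EpiLCs and the flat EpiSCs within the Epiblastoids. The ratios are descriptions of single libraries and were not tested.

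**Figure D3:**
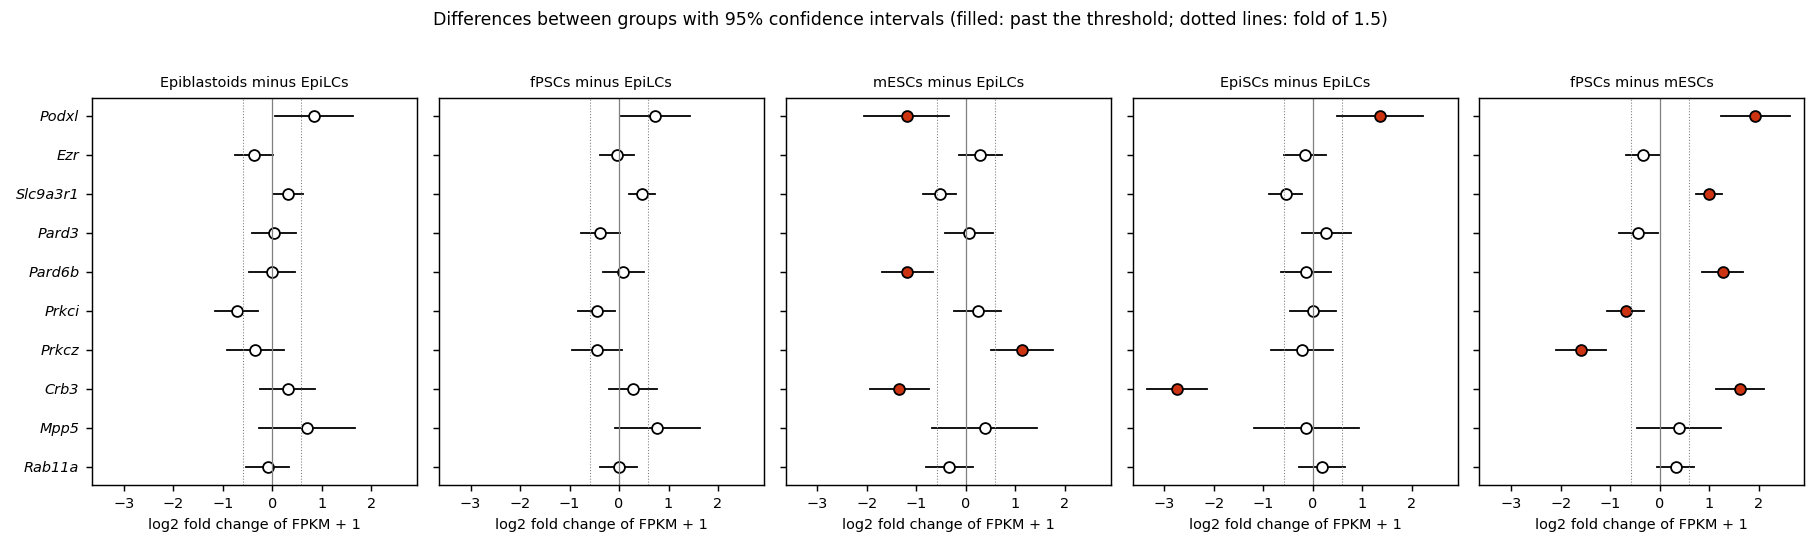
Log2 fold change of FPKM + 1 (x axis) of the 10 genes (y axis) in 5 comparisons; points are limma estimates, bars 95% confidence intervals, and filled points are past the threshold. No point is filled for Epiblastoids or fPSCs against EpiLCs, 4 are for mESCs, 2 for EpiSCs and 6 for fPSCs against mESCs.

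Among the Par genes, Pard6b separated mESCs from all other states. It was at 6.20 and 5.13 FPKM in mESCs and at 14.3 and 13.9 FPKM in EpiLCs. Epiblastoids had 11.5, 13.8 and 17.7 FPKM on days 2 to 4, long-term fPSCs 11.8 to 20.0 FPKM with a median of 15.0 FPKM, and EpiSCs 12.3 and 13.1 FPKM. The mESC libraries were the only ones below 11 FPKM. Pard6b fell in mESCs against EpiLCs by 1.19 (SE 0.24, adjusted p = 0.00178) and was 1.27 higher in fPSCs than in mESCs (SE 0.19, adjusted p = 7.95e-05), and both calls were kept whichever library was left out. Against EpiLCs, the estimates in Epiblastoids and fPSCs were -0.00049 and 0.09 with intervals of -0.47 to 0.47 and -0.32 to 0.50.

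Prkcz, 1 of the 2 atypical kinases, went the other way. It was at 16.1 and 13.8 FPKM in mESCs, at 4.97 and 7.84 FPKM in EpiLCs and between 2.84 and 6.02 FPKM in all 15 other libraries. The mESC libraries were above all others, and the remaining groups overlapped. Prkcz was 1.13 higher in mESCs than in EpiLCs (SE 0.29, adjusted p = 0.00962) and 1.58 lower in fPSCs than in mESCs (log2 fold change -1.58, SE 0.24, adjusted p = 7.10e-05). The first call was lost without mESCs 1 (adjusted p = 0.0729) or EpiLCs 1 (adjusted p = 0.117).

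Prkci, the other atypical kinase, was at 37.6 and 29.8 FPKM in mESCs, 32.2 and 24.9 FPKM in EpiLCs and 26.6 and 30.2 FPKM in EpiSCs. It was at 18.3, 18.3 and 14.1 FPKM in Epiblastoids, at 17.3 to 24.5 FPKM in long-term fPSCs with a median of 20.5 FPKM, at 25.9 FPKM at P1 and at 12.1 and 13.9 FPKM in epiblast-derived fPSCs. All Epiblastoid and long-term fPSC libraries were below both EpiLC libraries. Prkci fell in fPSCs against mESCs by 0.69 (SE 0.18, adjusted p = 0.00547), and this call was lost without mESCs 1 (-0.52, adjusted p = 0.121). Against EpiLCs the difference was -0.72 in Epiblastoids (SE 0.20, 95% interval -1.15 to -0.29, adjusted p = 0.0838) and -0.45 in fPSCs (SE 0.18, -0.83 to -0.08, adjusted p = 0.114). The fPSCs of the first deposit alone passed against EpiLCs, at -0.63 (adjusted p = 0.0380), with 17.3 to 18.4 FPKM where the second deposit had 20.5 to 24.5 FPKM. Within a library, Prkcz made up 30.8% ± 1.17 (SD, n = 2) of the summed level of both kinases in mESCs, 18.7% ± 7.46 (SD, n = 2) in EpiLCs and 17.5% ± 2.54 (SD, n = 7) in long-term fPSCs.

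Prkcz has a start at the 5′ end of the gene, which serves the full-length kinase, and a start inside the gene, which serves shorter transcripts. The 250 bases before each are shown because their CpG content and methylation differ. Prkcz lies on the minus strand of chromosome 4 (chr4:154634238-154735470, NCBIM37). The first window is chr4:154735471-154735720, with 25 CpG in capitals. The second is chr4:154719882-154720131, in an intron 15589 bp inside the gene, with 8 CpG.
Prkcz, 5′ end of the gene: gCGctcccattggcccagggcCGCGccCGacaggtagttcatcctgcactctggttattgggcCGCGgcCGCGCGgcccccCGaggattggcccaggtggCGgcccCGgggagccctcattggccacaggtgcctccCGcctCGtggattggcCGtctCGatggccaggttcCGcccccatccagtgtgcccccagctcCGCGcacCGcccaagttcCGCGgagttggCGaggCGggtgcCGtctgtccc
Prkcz, inner start: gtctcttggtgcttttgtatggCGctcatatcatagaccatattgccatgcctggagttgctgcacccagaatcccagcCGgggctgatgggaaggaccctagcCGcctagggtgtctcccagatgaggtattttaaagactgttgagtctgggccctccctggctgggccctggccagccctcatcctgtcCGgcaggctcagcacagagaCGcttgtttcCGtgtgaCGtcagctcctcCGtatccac
In fPSCs, methylation within 1000 bp averaged 16.2% over 19 windows at the 5′ end and 91.9% over 17 windows at the inner start. H3K4me3, a mark of active or poised starts, was at a mean of 3.14 RPKM at the 5′ end and 0.473 RPKM at the inner start, which are above 55.3% and 29.7% of all promoters.

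Pard3, the scaffold that positions the complex, was at 15.3 and 12.4 FPKM in mESCs, 15.0 and 11.6 FPKM in EpiLCs, 17.6 and 14.7 FPKM in EpiSCs and 14.8, 14.9 and 11.1 FPKM in Epiblastoids. The long-term fPSCs ran lower, from 7.67 over a median of 10.3 to 12.0 FPKM, with 6 of 7 libraries below both EpiLC libraries and all below mESCs and EpiSCs. The difference from EpiLCs was -0.38 (SE 0.18, 95% interval -0.77 to 0.02, adjusted p = 0.221) and from mESCs -0.44 (SE 0.18, -0.83 to -0.04, adjusted p = 0.0711), and neither passed.

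Crb3, the membrane anchor of the Crumbs complex, had the largest change of the 10 genes against EpiLCs. It was at 2.31 and 2.40 FPKM in EpiSCs, 9.07 and 6.74 FPKM in mESCs and 18.6 and 24.8 FPKM in EpiLCs. Epiblastoids had 25.1, 28.0 and 27.6 FPKM, fPSCs at P1 36.3 FPKM, and long-term fPSCs 19.8 to 35.1 FPKM with a median of 26.7 FPKM. EpiSCs were below every other library, mESCs came next, and the Epiblastoids were just above both EpiLC libraries. Crb3 fell in EpiSCs against EpiLCs by 2.74 (SE 0.28, adjusted p = 4.18e-06) and in mESCs by 1.35 (SE 0.28, adjusted p = 0.00222), and it was 1.62 higher in fPSCs than in mESCs (SE 0.22, adjusted p = 3.52e-05). These 3 calls were kept whichever library was left out. Epiblastoids and fPSCs differed from EpiLCs by 0.31 and 0.28, with intervals of -0.24 to 0.86 and -0.21 to 0.76 (adjusted p = 0.609 and 0.495). The fPSCs of the first deposit, at 29.7 to 35.1 FPKM, passed alone (0.60, adjusted p = 0.0440), while those of the second were at 19.8 to 26.7 FPKM.

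Of the epithelial markers Cdh1, Epcam, Cldn6 and Grhl2, all 4 fell in EpiSCs against EpiLCs. In mESCs 3 of them fell, while Cdh1 was at -0.26 (adjusted p = 0.484). The sum of the 4 was 91.1 and 100.1 FPKM in EpiSCs, 161 and 201 FPKM in mESCs, 395 and 421 FPKM in EpiLCs and 400 to 502 FPKM in Epiblastoids and long-term fPSCs. The 4 mesenchymal markers summed to 1151 and 1284 FPKM in EpiSCs and to at most 154 FPKM elsewhere. Whether the low Crb3 of EpiSCs belongs to the stem cells, the feeders among them or both was not tested.

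Crb3 also has a pair of start regions, shown because their CpG content and letters differ. It lies on the plus strand of chromosome 17 (chr17:57198528-57205341, NCBIM37). The window before the 5′ end, chr17:57198278-57198527, holds 2 CpG, and that before the inner start, 3096 bp inside the gene, holds 17. Of the latter only the 190 bases before the next annotated exon are printed, chr17:57201374-57201563, with 11 CpG in capitals.
Crb3, 5′ end of the gene: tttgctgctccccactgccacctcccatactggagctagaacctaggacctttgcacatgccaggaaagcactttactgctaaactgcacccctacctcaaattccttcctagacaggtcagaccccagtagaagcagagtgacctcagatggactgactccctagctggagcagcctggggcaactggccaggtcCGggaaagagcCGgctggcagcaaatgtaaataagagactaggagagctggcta
Crb3, inner start: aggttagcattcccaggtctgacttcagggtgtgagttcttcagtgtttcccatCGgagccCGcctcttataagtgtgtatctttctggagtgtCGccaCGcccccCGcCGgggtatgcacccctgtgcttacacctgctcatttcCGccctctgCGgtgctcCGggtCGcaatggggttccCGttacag
H3K4me3 in fPSCs was at 2.25 RPKM within 1000 bp of the 5′ end and at 4.62 RPKM within 1000 bp of the inner start, and methylation averaged 11.9% over 8 windows and 20.9% over 17 windows.

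The 250-base windows were searched on both strands for CAGGTG, the E-box bound by repressors of the Snail and Zeb families, and for AACCGGTT, the site of Grainyhead-like factors. CAGGTG was found 3 times before the inner start of Crb3, 2 times before Pard6b and 2 times before the 5′ end of Prkcz, and in none of the other 9 windows of the 10 genes, beside 17.0% of 22102 promoters. Of the 3 at Crb3, only 1 (as CACCTG) lies within the 190 bases printed above. The others reach into or lie in the annotated exon that follows. AACCGGTT was in none of the 12 windows and in 0.127% of promoters. The E-boxes are matches of letters only.

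Mpp5, the scaffold under Crb3, was low in every library. It was at 3.27 and 1.92 FPKM in mESCs, 1.96 and 1.49 FPKM in EpiLCs, 1.34 and 1.64 FPKM in EpiSCs and 1.43, 4.61 and 5.34 FPKM in Epiblastoids. Long-term fPSCs had 1.86 to 2.97 FPKM in the first deposit and 3.97 to 7.15 FPKM in the second. The line derived from CMT cells was at 1.88 FPKM in P10 of the first deposit and at 4.80 FPKM in P11 of the second, which had also been cryopreserved. Mpp5 was 0.77 higher in fPSCs than in EpiLCs (SE 0.40, 95% interval -0.08 to 1.63, adjusted p = 0.249), which did not pass over all fPSCs and passed with the second deposit alone (1.18, adjusted p = 0.0410). Deposit and cryopreservation cannot be told apart in this pair, and the part of either in the difference was not tested.

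Rab11a, the vesicle GTPase, did not pass in any comparison. It was at 15.3 and 17.9 FPKM in mESCs, 17.3 and 25.7 FPKM in EpiLCs, 24.2 and 23.9 FPKM in EpiSCs, 17.4, 21.0 and 21.0 FPKM in Epiblastoids and 17.2 to 26.2 FPKM in long-term fPSCs. Every group overlapped the range of the 2 EpiLC libraries. For Epiblastoids and fPSCs the differences from EpiLCs were -0.09 and -0.01, with intervals of -0.52 to 0.33 and -0.38 to 0.37. A change of 1.5-fold in either direction lies outside both intervals. They rest on the pooled spread, and the 2 EpiLC libraries alone were at 17.3 and 25.7 FPKM.

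Counted by libraries that do not overlap between groups, 5 of 10 members separated Epiblastoids from EpiLCs, where 30.5% of all genes did. Podxl, Slc9a3r1 and Crb3 were higher and Ezr and Prkci lower in all 3 Epiblastoid libraries. On days 2 and 3 alone, a comparison added after seeing the data, Pard6b was also lower, which makes 6 of 10 members beside 41.2% of genes. In long-term fPSCs against EpiLCs 3 members did, beside 27.2% of genes (Podxl and Slc9a3r1 higher, Prkci lower). In mESCs against EpiLCs 6 members did, beside 68.2% of genes (Ezr and Prkcz higher, Podxl, Slc9a3r1, Pard6b and Crb3 lower), and in EpiSCs against EpiLCs 4 did, beside 75.0% (Podxl higher, Slc9a3r1, Pard6b and Crb3 lower). In fPSCs against mESCs 8 did, beside 50.2%, with Podxl, Slc9a3r1, Pard6b and Crb3 higher and Ezr, Pard3, Prkci and Prkcz lower. In fPSCs against EpiSCs 5 members did, beside 45.2%, with Slc9a3r1, Crb3 and Mpp5 higher and Prkci and Pard3 lower in all 7 fPSC libraries. The epiblast-derived fPSCs, of another source, were separate from EpiLCs for 7 members, beside 63.1% of genes: Podxl, Slc9a3r1, Pard6b and Mpp5 were higher and Ezr, Pard3 and Prkci lower.

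From day 3 to day 4 of the Epiblastoids, the log2 ratio of Podxl was 1.35 and that of Ezr -0.58, while those of Slc9a3r1 and Crb3 were 0.02 and -0.02. Between these days primitive streak markers went from 51.8 to 533 FPKM and mesenchymal markers from 26.9 to 154 FPKM in sum, and their part in the ratios was not tested. From day 2 to day 3, Mpp5 changed by 1.21 and Prkcz by 0.87. Each day is 1 library without a replicate, and 13.9% of all 12629 genes passed a log2 ratio of 1 in either direction between days 3 and 4.

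Of 41 further genes of apical and basolateral polarity, listed by class, 40 were in the table and 33 were tested. None passed in Epiblastoids against EpiLCs, beside 1.92% of all genes (10 had an unadjusted limma p under 0.05, beside 15.7% of all genes). In fPSCs against EpiLCs 2 of the 33 rose and 2 fell, beside 4.40% and 7.28% of all genes. Tiam1, an activator of Rac that binds Pard3, rose by 1.09 (adjusted p = 0.00242) and Inadl (Patj), which binds Mpp5 in the Crumbs complex, by 0.95 (0.0145). Pard6g, a relative of Pard6b, fell by 1.29 (0.00472), from 7.91 and 9.56 FPKM in EpiLCs to 1.81 to 4.52 FPKM, and Slc9a3r2, the relative of Slc9a3r1, fell by 0.85 (0.0140). Slc9a3r2 was thus at 2.38 to 4.45 FPKM in long-term fPSCs where Slc9a3r1 was at 121 to 144 FPKM.

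In mESCs against EpiLCs 5 of the 33 rose and 3 fell, beside 16.3% and 11.1% of all genes. The largest rises were of Rab11fip5, an effector of Rab11 (3.70, adjusted p = 5.87e-07), the basolateral gene Llgl2 (1.91) and Slc9a3r2 (1.12). The falls were of Rab3ip, the exchange factor Rabin8 that acts with Rab11 in lumen formation (-1.47), Lin7c of the Crumbs complex (-1.43) and Cdc42, the GTPase that binds Pard6 (-0.62). Rab11fip5 was at 28.7 and 20.9 FPKM in mESCs and at 0.838 FPKM in the lower and just above 1 FPKM in the other of the EpiLC libraries. In fPSCs against mESCs 6 of the 33 rose and 6 fell, beside 16.5% and 22.6% of all genes. They were led by Inadl (1.67), Lin7c (1.46) and Rab3ip (0.97) on 1 side and Rab11fip5 (-4.05), Anxa2 (-2.18) and Slc9a3r2 (-1.97) on the other.

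In EpiSCs against EpiLCs 11 of the 33 rose and 4 fell, beside 19.3% and 14.2% of all genes. Anxa2, the annexin that organizes the apical membrane in epithelia and is also abundant in fibroblasts, rose by 6.42, to 138 and 176 FPKM. Podxl2, the relative of Podxl, rose by 2.42 and Rab11fip5 by 2.37. The largest falls were of Stx3, the apical syntaxin (-2.01), Lin7c (-0.93) and Pard6a (-0.92). Of the membrane-cortex linkers 3 of 5 rose in EpiSCs, namely Msn, Slc9a3r2 and Podxl2. The fibroblast marker sums of 642 and 757 FPKM stand beside these rises, and their part was not tested.

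In fPSCs, chromatin at the starts of the 10 genes was assayed in 2 samples per assay, of which 1 track each was used, so the values have no spread. The study states that its ChIP replicates were merged for later analysis once their reproducibility had been checked. Whether a track used here holds 1 sample or both is not given in the sources. H3K4me3 within 1000 bp was highest at Ezr (10.7 RPKM), Prkci (8.41 RPKM), Podxl (7.58 RPKM) and Slc9a3r1 (6.87 RPKM), which are above 97.5%, 92.4%, 89.5% and 86.1% of promoters, and was above the median of 2.55 RPKM at the 5′ end of all members but Crb3. H3K27me3, the mark of Polycomb repression, had its highest values within 1000 bp at Podxl (0.858 RPKM, above 78.6% of promoters) and the 5′ end of Prkcz (0.797 RPKM, above 77.2%). In this window it was at or below 0.244 RPKM at the 5′ ends of the other 8 genes, where the median of all promoters was 0.305 RPKM. Within 5000 bp, Mpp5 (0.759 RPKM, above 74.9%) and Pard3 (0.497 RPKM, above 60.3%) came next to Podxl (0.956 RPKM, above 81.1%) and Prkcz (0.841 RPKM, above 77.9%). Methylation was lowest at Podxl (0.688%), Slc9a3r1 (1.58%), Ezr (2.44%) and Mpp5 (4.11%) and reached 16.2% at the 5′ end of Prkcz, so all 10 genes had a 5′ end below the median of 37.4%. No other cell state was measured by these assays.

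**Figure D4:**
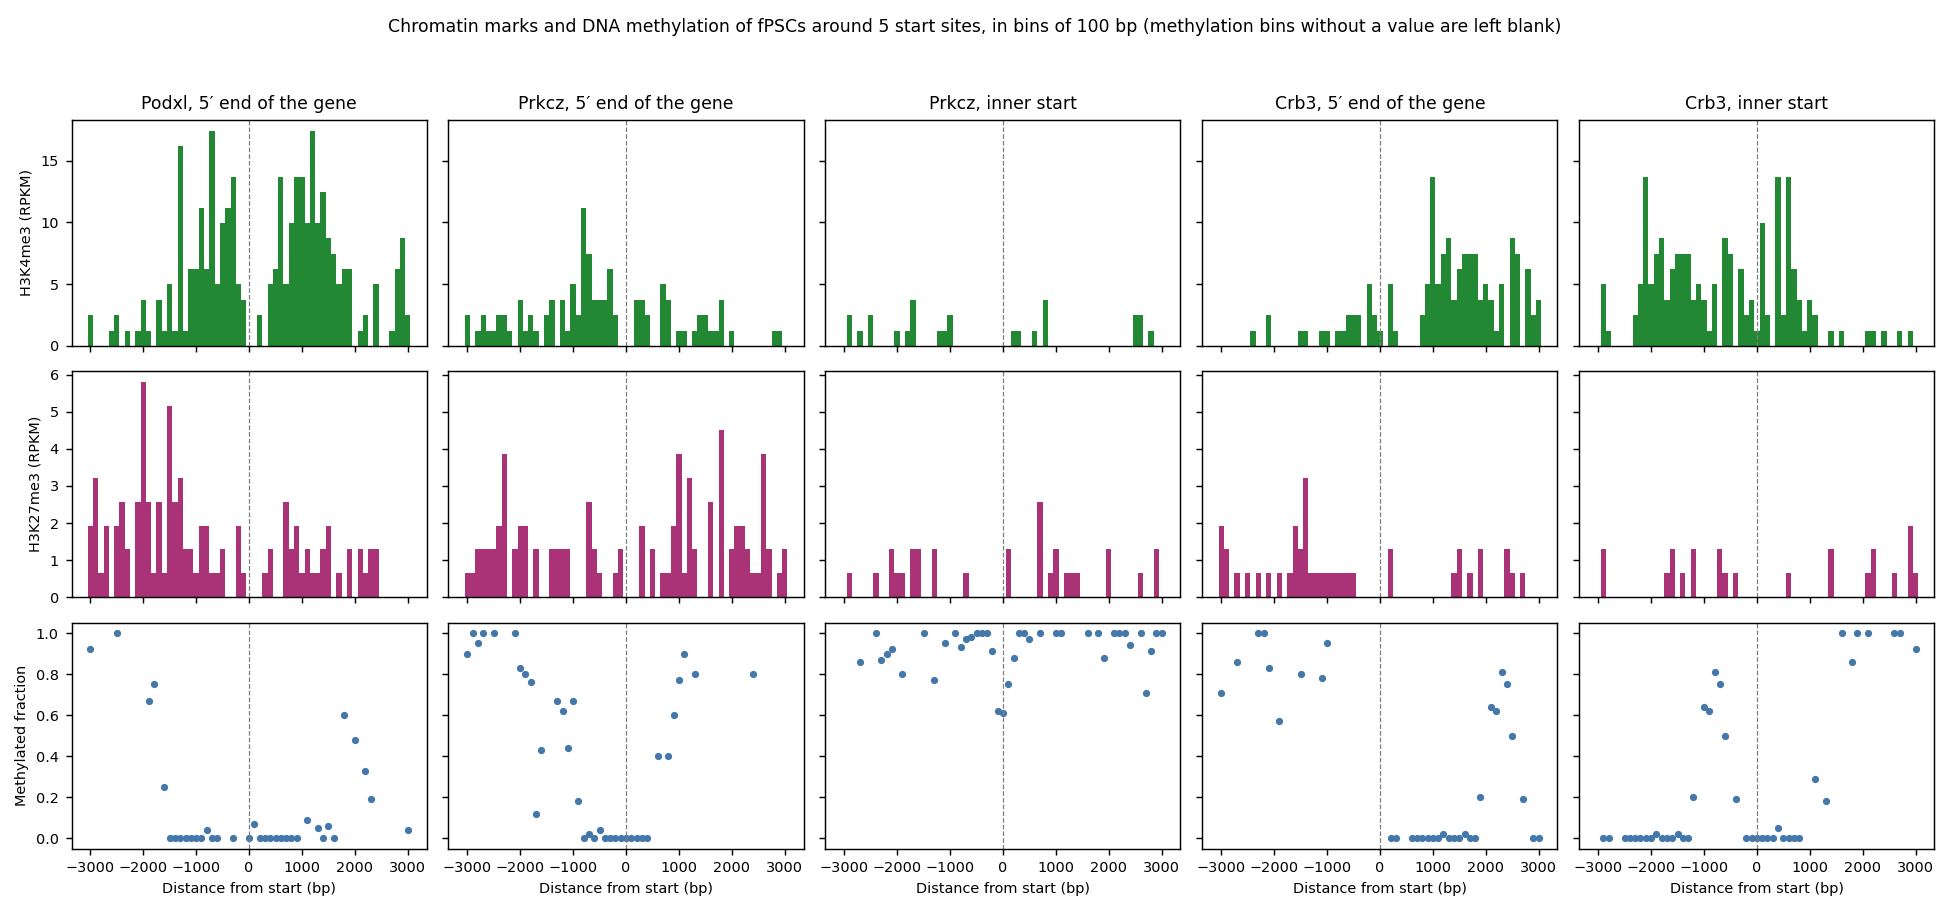
H3K4me3 (top, RPKM), H3K27me3 (middle, RPKM) and methylated fraction (bottom, 0 to 1) in fPSCs against the distance in bp from 5 starts, in bins of 100 bp. The inner start of Prkcz lies in methylated DNA (a mean of 91.9% within 1000 bp) with little H3K4me3, whereas the start of Podxl lies in an unmethylated stretch (0.688%). H3K4me3 there was at 7.58 RPKM and H3K27me3 at 0.858 RPKM, above 89.5% and 78.6% of promoters. Whether the start of Podxl carries both marks was not tested.

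In single fPSCs of 4 clones (182 cells, summed counts of 1501395 to 4712214 per clone) all 10 genes were detected in every clone. Pard3 had a count in 75.8% of cells, Ezr in 71.4% and Slc9a3r1 in 62.1%. Podxl had one in 20.3% of cells (6.52% to 32.6% by clone), Pard6b in 21.4%, Crb3 in 17.6% and Prkcz in 13.2%. Summed over a clone, Ezr was at 190 to 225 CPM (counts scaled to the clone's total), Slc9a3r1 at 125 to 230 and Podxl at 7.99 to 37.3. Pard3 was at 191 to 288 CPM, and Mpp5, with a count in 43.4% of cells, at 28.6 to 94.0 CPM. In the bulk fPSC libraries Pard3 was below Ezr and Mpp5 below Podxl. In clone 4 Pard3, at 191 CPM, was likewise below Ezr, at 223 CPM. CPM are not scaled to transcript length as FPKM are, so the order of genes cannot be compared between these measures. Cells of a clone are not replicates, clones differ in depth, and a cell without a count may still express the gene.

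Across the 19 libraries, the genes with the pattern most like that of Podxl among 4689 genes at a mean of at least 10 FPKM and a range of at least 1 on the log2 scale were Snn, Ap3s2, Bcl2l13, Smo and Tmem98 (Pearson r 0.907 to 0.889). Those most like Ezr were Nfu1, Tpgs1, Necap1, Vta1 and Mcm3 (r 0.815 to 0.764). Among the members the highest r was that of Slc9a3r1 and Crb3 (0.886) and the lowest that of Pard6b and Prkcz (-0.755). These points share libraries and states and are descriptions only.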

How the data were processed

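The 10 genes and the lists of further genes were chosen with earlier results of these data known. For bulk RNA-seq (19 libraries of RNA-zol extracts) the authors deposited FPKM estimated by Cufflinks 2.1.1 from TopHat2 2.1.1 alignments to mm9, after cutadapt 1.11. No replicate was pooled. FPKM hide depth, and genes that share reads with relatives depend on how Cufflinks divided them. For single fPSCs the authors deposited counts per gene and cell of 4 clones; 1 cell name of clone 3 is listed 2 times, and whether counts are molecules or reads is not given in the sources used here. H3K4me3 and H3K27me3 were deposited as RPKM per bin of 100 bp (Bowtie2 2.2.2), and DNA methylation as the methylated fraction per window of 100 bp, without coverage, 1 track for 2 samples each.

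Of 23608 entries, 4 with a repeated name were left out. Genes that reached 1 FPKM in 2 or more of the 16 libraries fitted were tested with limma 3.58.1 (R 4.3.3, trend option) on log2(FPKM + 1), a scale that understates changes of low genes. Samples were grouped by their labels, and Epiblastoid days were 1 group, so the spread between days is part of the pooled error. P1 and epiblast-derived fPSCs were described only. Members were named in every comparison, and of the further genes the 3 largest rises and falls past the threshold. Starts and sequences came from the NCBIM37 genome and its GENCODE annotation. The inner start is the first of at least 3 coding starts within 1000 bp, more than 1000 bp inside the gene. Of methylation windows on chromosome 19, 99.5% held a CpG in this genome, against 52.3% of all windows. The limma step was tested on simulated data. Alternatives were each library left out, 1 deposit of fPSCs, a fit of the 2 groups alone, upper-quartile scaling, a pseudocount of 0.1, no filter and the replicate number as a block.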

Additional observations from a re-analysis of the deposited data

Results flagged for a closer look

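Podxl in the fPSC library 46C P24 stood apart from the other 6 long-term fPSC libraries, at 42.5 FPKM against 16.7 to 22.5 FPKM. Its gap to the next library was 0.777 of the range of all 7 (Dixon's test at the 95% level). The test takes the libraries as independent, but P10, P20, P30 and CMT P11 are of the same line, so its level is nominal. Of the 10 genes tested in this way it was the single one with such a library, and chance gives about 1 in 20 groups. The sums of endoderm and primitive streak markers in this library were 168 and 165 FPKM, and their part in the value was not tested. None of the other 9 genes had a separated library among the fPSCs.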

How the results depend on the processing

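Of 12 calls of single members, 8 kept their direction and their side of the threshold under every alternative run. The others were Podxl in mESCs and in EpiSCs and Prkcz in mESCs against EpiLCs, and Prkci in fPSCs against mESCs, which also missed the fold with fPSCs of the second deposit (-0.55, adjusted p = 0.0218). Podxl in mESCs missed the p without a filter (adjusted p = 0.0557). Members called in fPSCs against EpiLCs were 2 with the first deposit, 1 with the second and 1 with the adjusted p alone, an alternative added after seeing the data, against 0. Leaving out 1 library gave 0 members in Epiblastoids and in fPSCs, 2 to 3 in mESCs and 1 to 3 in EpiSCs against EpiLCs, and 5 to 6 in fPSCs against mESCs. Genes called over the whole table were then 45 to 596 in Epiblastoids, 608 to 1454 in fPSCs, 1893 to 2684 in mESCs, 2021 to 3318 in EpiSCs and 3140 to 5039 in fPSCs against mESCs, and 0 in Epiblastoids when limma fitted only the 2 groups, with 1142 at an unadjusted p under 0.05. With a pseudocount of 0.1, 48.1% of the genes called in Epiblastoids were higher, against 32.6%.

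Small differences that were never called changed sign. With upper-quartile scaling these were Pard6b in fPSCs (-0.00054), Pard3 in mESCs (-0.069) and Prkci in EpiSCs (-0.094) against EpiLCs. With the second deposit they were Ezr (0.045), Pard6b (-0.066) and Rab11a (0.088) in fPSCs against EpiLCs, and with the first Mpp5 in fPSCs against mESCs (-0.14). With 1 library left out, the log2 fold changes against EpiLCs ran from -0.14 to 0.21 for Pard3, -0.15 to 0.14 for Pard6b and -0.37 to 0.18 for Rab11a in Epiblastoids, from -0.12 to 0.044 for Ezr and -0.28 to 0.26 for Rab11a in fPSCs, from -0.11 to 0.23 for Pard3 in mESCs, and from -0.18 to 0.18 for Prkci, -0.50 to 0.067 for Prkcz and -0.092 to 0.45 for Rab11a in EpiSCs. The causes were not tested. Replicate numbers did not pair the samples (correlations of deviations 0.203, -0.134 and -0.198). The replicate block gave 4394 genes and 4 members in mESCs and 5224 genes and 2 members in EpiSCs against EpiLCs. Depth is unknown, and with 2 libraries in most groups, differences below the fold of 1.5 were seldom resolved.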
